A study of Mus musculus with 14 samples.

Results

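The 9 genes described here belong to 2 linked arms of immune defence: B2m, H2-D1, H2-K1, H2-Aa and Cd74 encode parts of the major histocompatibility complex (MHC) machinery, and Ifit1, Ifit3, Isg15 and Irf7 respond to interferon. They were chosen by symbol from the deposited gene table, and all 9 were found among the 55421 mouse genes counted. RNA came from brainstem tissue of 7 mice, each giving a library of the total homogenate (pre-IP) and a library of the immunoprecipitate (IP), so that 14 libraries were read. All mice carried Th-Cre, in which the tyrosine hydroxylase gene drives Cre recombinase, and Slc6a2-eGFP/Rpl10a, in which the noradrenaline transporter gene drives a fluorescently tagged ribosomal protein. All received an infusion into the locus coeruleus, the main noradrenergic nucleus of the brainstem, at 2 to 3 months of age. In 4 animals (B, C, L and M) the infusion delivered human tau with the P364S mutation, and in 3 (H, I and K) it delivered EYFP, a fluorescent protein that served as the control. No animal without an infusion was included, so any response to the infusion itself is common to both treatments. The labels give C57Bl/6 as the background and B6;FVB as the strain of the tagged line. H2 genes differ in sequence between inbred strains, and the H2 alleles of these animals were not analysed here.

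MHC class I molecules display peptides made inside the cell. Their heavy chains, of which H2-D1 and H2-K1 encode the classical pair in C57BL/6 mice, need the light chain beta-2 microglobulin, the product of B2m. MHC class II molecules display peptides from protein that was taken up, and in the brain they are made mainly by microglia, border macrophages and infiltrating leukocytes. H2-Aa encodes a class II alpha chain, and Cd74 encodes the invariant chain that guides class II molecules to the compartment where peptides are loaded. Interferons act through receptors and Jak and Stat proteins on a DNA element, the interferon-stimulated response element. Ifit1 encodes an antiviral protein that binds foreign RNA, Ifit3 encodes a relative from the same family, Isg15 encodes a ubiquitin-like protein that is attached to other proteins, and Irf7 encodes a transcription factor that amplifies the production of type I interferon.

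The promoter sequences are given first, since MHC genes and interferon response genes are known to be controlled through different elements. RefSeq start sites (GRCm38.p6) were used for 8 of the 9 genes, and no window of Cd74 was searched. In the 250 bases before each start, both strands were searched for GAAA, any 2 bases and GAAA again, the core of an interferon-stimulated response element (on the other strand TTTC, any 2 bases and TTTC), and for TGACG followed after 5 to 25 bases by ATTGG, a simplified form of the X2 and Y boxes that MHC promoters share. The element-like core was present in 2.98% of 32851 such windows, and the X2-Y pair in 0.612%. Isg15 held 3 overlapping matches to the core, a number reached or passed by 4 windows of all genes. Ifit1 and Ifit3 held 2 each and B2m held 1, while H2-D1, H2-K1, H2-Aa and Irf7 held no match to these letters in this window. The X2-Y pair was found in B2m, H2-D1 and H2-K1 with a spacer of 20 bases and in H2-Aa with a spacer of 21 bases. These are letter matches only. The 5 windows below are printed 5′ to 3′ on the gene's strand because they show both motifs, with matches in capitals, for B2m at chr2:122147437-122147686 (plus strand), H2-K1 at chr17:34000348-34000597 (minus strand), H2-Aa at chr17:34287824-34288073 (minus strand), Ifit3 at chr19:34583279-34583528 (plus strand) and Isg15 at chr4:156200819-156201068 (minus strand).
B2m: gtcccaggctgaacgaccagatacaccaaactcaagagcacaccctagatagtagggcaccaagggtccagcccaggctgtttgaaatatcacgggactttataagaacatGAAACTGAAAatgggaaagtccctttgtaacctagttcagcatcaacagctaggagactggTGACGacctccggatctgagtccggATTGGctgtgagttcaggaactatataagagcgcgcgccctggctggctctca
H2-K1: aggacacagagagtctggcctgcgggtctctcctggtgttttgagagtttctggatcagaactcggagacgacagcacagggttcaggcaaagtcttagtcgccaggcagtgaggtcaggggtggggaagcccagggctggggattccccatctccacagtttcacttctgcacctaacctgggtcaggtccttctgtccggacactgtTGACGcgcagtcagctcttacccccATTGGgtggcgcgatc
H2-Aa: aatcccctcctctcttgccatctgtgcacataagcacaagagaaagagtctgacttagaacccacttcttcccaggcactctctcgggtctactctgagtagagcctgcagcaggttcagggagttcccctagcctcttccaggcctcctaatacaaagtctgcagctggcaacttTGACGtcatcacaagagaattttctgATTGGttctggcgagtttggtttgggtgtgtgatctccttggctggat
Ifit3: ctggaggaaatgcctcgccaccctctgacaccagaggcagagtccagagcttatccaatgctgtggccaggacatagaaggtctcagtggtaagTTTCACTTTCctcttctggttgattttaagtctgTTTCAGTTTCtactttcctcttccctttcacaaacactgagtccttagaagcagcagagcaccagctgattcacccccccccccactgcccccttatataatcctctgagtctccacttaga
Isg15: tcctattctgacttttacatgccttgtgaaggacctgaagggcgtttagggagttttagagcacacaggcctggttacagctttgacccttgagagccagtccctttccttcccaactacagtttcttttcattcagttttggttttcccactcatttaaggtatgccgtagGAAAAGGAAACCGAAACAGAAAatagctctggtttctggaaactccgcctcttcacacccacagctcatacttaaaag
In B2m the core begins 139 bases before the start and the pair lies downstream of it, at 78 and 53 bases. In Ifit3 the matches begin 156 and 122 bases before the start. The 3 matches of Isg15 share bases, and they begin 78, 72 and 66 bases before it.

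In the genome build of the files (GRCm38) all 9 are protein-coding genes. B2m (ENSMUSG00000060802.8) lies at chr2:122147686-122153083. The H2 genes lie together on chromosome 17, with H2-K1 (ENSMUSG00000061232.16) at chr17:33996017-34000347, H2-Aa (ENSMUSG00000036594.15) at chr17:34282744-34287823 and H2-D1 (ENSMUSG00000073411.12) at chr17:35262730-35267499. Cd74 (ENSMUSG00000024610.15) lies at chr18:60803848-60812652. Ifit3 (ENSMUSG00000074896.3) at chr19:34583531-34588731 and Ifit1 (ENSMUSG00000034459.8) at chr19:34640871-34650009 both lie in the Ifit cluster. Isg15 (ENSMUSG00000035692.7) lies at chr4:156199455-156200796 and Irf7 (ENSMUSG00000025498.15) at chr7:141262706-141266481. Reads from part of these genes could be split with near-identical copies, because how such reads were counted is not given in the sources used here. Of all 50-base stretches of its longest coding transcript, Ifit3 shares 51.2% with Ifit3b, H2-D1 shares 14.3% with other genes, H2-K1 8.8%, Ifit1 7.1% and Isg15 4.0%, so the values of Ifit3 and of the class I heavy chains carry this uncertainty. B2m, H2-Aa, Cd74 and Irf7 share 0%. Exons of Cd74 overlap Mir5107 over 12 bases, and those of Irf7 overlap Phrf1, on the opposite strand, over 45 bases.

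Total counts ran from 41843489 to 65664551 per library, so that 3 counts, the floor used here, stood for 0.0457 to 0.0717 counts per 1e6 counts of the library (CPM). Such limits cover counting error only. The RNA integrity number was 7.7 or above in all libraries except the IP of EYFP animal I, where it was 4.2. EYFP animal K held 408 and 398 counts of the human tau construct in its libraries, against 2 to 18 in the other EYFP libraries and 3527 to 47177 in the tau libraries, and animal M, labelled female, held 674 and 1153 counts of Y-linked genes. Results were therefore also computed without K and M. The IP enriched the noradrenergic cells unequally: the summed level of 12 noradrenergic marker genes in the IP was above that in the homogenate by 1.26 to 4.06 on the log2 scale in tau animals and by 0.41 to 0.49 in EYFP animals. Enrichment and treatment therefore cannot be told apart in the IP. In all libraries of mixed tissue, fewer cells of a type and less RNA per cell cannot be told apart either.

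All 9 genes were detected in every library, at 60 counts or more. Per length of merged exons, B2m stood highest in the 7 homogenates at 127.7 ± 20.1 CPM per kilobase (SD, n = 7), followed by H2-D1 at 59.0 ± 14.2 and Cd74 at 16.6 ± 3.27. The ranges of these 3 genes did not overlap with each other. H2-K1 at 9.69 ± 2.09 overlapped with Ifit3 at 8.07 ± 0.967, and Ifit3 overlapped with Isg15 at 5.55 ± 1.05 CPM per kilobase. The lowest 3 were H2-Aa at 1.80 ± 0.472, Irf7 at 1.64 ± 0.446 and Ifit1 at 0.966 ± 0.159, each overlapping with the next. The merged exons of Irf7 cover the whole gene and leave no intron, which enters its level per kilobase. Those of H2-Aa span 3798 bases against 1128 in its longest coding transcript, and those of H2-K1 2938 against 1619. Both levels would be higher per transcript length, so the order of the genes depends on the length used. By merged exons, the class II invariant chain stood above the class II alpha chain, and the class I light chain above both heavy chains. Over the homogenates, each gene's highest level was 1.36 (Ifit3) to 2.36 (H2-Aa) times its lowest. In the IP libraries this ratio was 1.67 to 1.83 for the class I genes, 2.07 for Ifit3, and 3.24 for Cd74, 3.48 for H2-Aa, 4.56 for Isg15, 5.06 for Ifit1 and 7.16 for Irf7. The library of animal B set the lowest IP level of the 6 genes from H2-Aa to Irf7, and without it the ratio was 1.44 for Isg15 and 1.39 for Irf7. The plot of CPM by library shows the point of B apart from the others in the panels of Isg15 and Irf7.

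**Figure D1:**
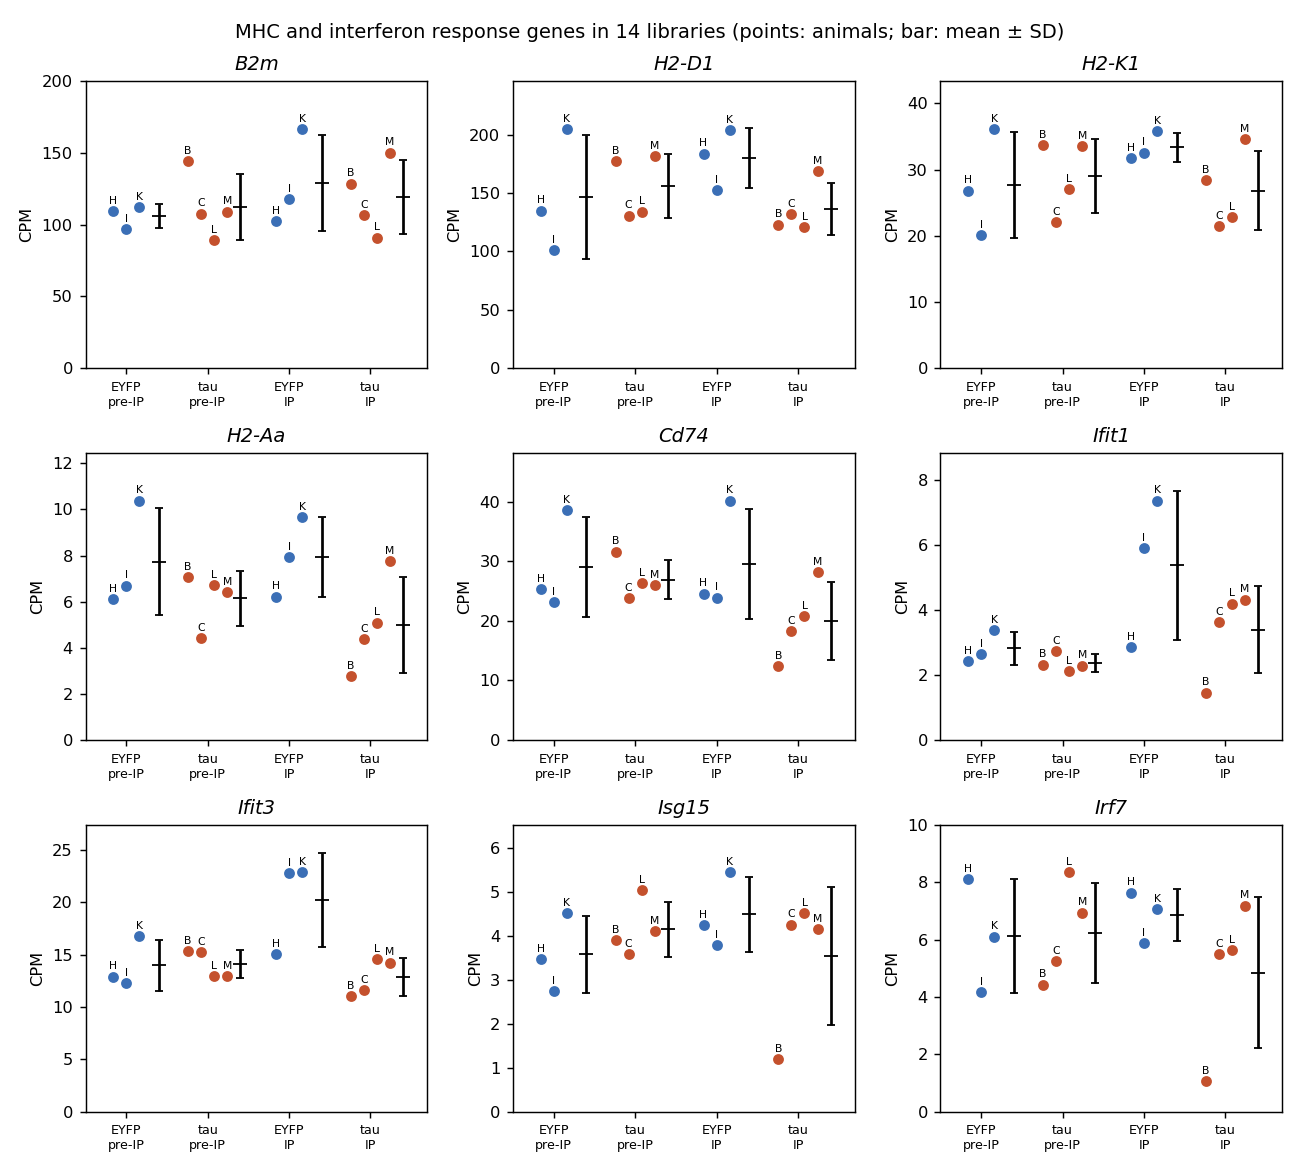
Level of each gene in CPM (linear axis from 0) in each library, by treatment and fraction. Points are animals, marked by letter, and the black bar is the mean ± SD of 3 EYFP or 4 tau libraries. The IP of tau animal B is lowest for H2-Aa at 2.78, Cd74 at 12.4, Isg15 at 1.19 and Irf7 at 1.07 CPM, while for B2m at 128.6 CPM it lies inside the range of the other libraries.

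Tau expression was first compared with EYFP in the homogenate, which asks whether MHC and interferon genes of the whole tissue differed with treatment. None of the 9 genes passed the test. B2m stood at 144.2, 107.6, 89.3 and 109.1 CPM in tau animals B, C, L and M and at 109.5, 96.7 and 112.4 CPM in EYFP animals H, I and K. H2-D1 stood at 177.5, 130.7, 134.1 and 181.9 CPM with tau and at 134.9, 100.9 and 205.0 CPM with EYFP. H2-K1 stood at 33.6, 22, 27.0 and 33.5 CPM with tau and at 26.8, 20.1 and 36.1 CPM with EYFP. For all 3 class I genes the treatments overlapped, and the highest and the lowest homogenate of both heavy chains were EYFP libraries, K and I.

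The class II genes overlapped likewise. H2-Aa was counted at 7.05, 4.40, 6.71 and 6.41 CPM in the tau homogenates and at 6.09, 6.70 and 10.4 CPM in the EYFP homogenates. Cd74 was counted at 31.6, 23.8, 26.3 and 26.1 CPM with tau and at 25.4, 23.2 and 38.7 CPM with EYFP. Animal K was the highest homogenate for both genes, and K was also the EYFP animal with tau construct counts.

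The interferon response genes also overlapped. Ifit1 ran from 2.12 to 2.75 CPM with tau and from 2.44 to 3.39 CPM with EYFP, and Ifit3 from 13 to 15.3 and from 12.3 to 16.8 CPM. Isg15 ran from 3.58 to 5.03 CPM with tau and from 2.75 to 4.51 CPM with EYFP, and Irf7 from 4.44 to 8.35 and from 4.17 to 8.13 CPM. Every range overlapped with that of the other treatment, and of all genes tested 3.12% did not overlap. In edgeR's quasi-likelihood test the log2 fold changes of the 9 genes, tau minus EYFP, ran from -0.33 ± 0.25 (SE) for H2-Aa to 0.23 ± 0.23 for Isg15. The adjusted p was 1.00 for each, and 0 of 9 had an unadjusted p under 0.05 against 2.84% of the 19197 genes tested. At the adjusted threshold edgeR called 0.0% of all genes, and DESeq2 and voom called 0 of the 9. The median log2 fold change of the 9 was 0.06, beside a median of all genes of -0.00048. Of the 9, 6 lay above 0, as did 9575 of the 19197 genes tested. With 3 and 4 animals these standard errors leave room for changes that would not have been detected.

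In the IP, which asks the same of RNA bound to the tagged ribosomes, all 9 genes had lower fitted levels with tau, and again none passed the test. The fitted values lay below 0 for 9 of 9, as they did for 11014 of all 19472 genes tested. The median was -0.43 on the log2 scale for the 9 and -0.08 for all genes. The fitted value of B2m, -0.0065 ± 0.24, turned to 0.027 with the size factors of DESeq2. edgeR called 0.0% of all genes at the adjusted threshold, while 1 of 9 had an unadjusted p under 0.05 against 12% of all genes. voom called 0 of the 9, and DESeq2, which gave an adjusted p for 2 of the 9 only (B2m and H2-D1), called neither.

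Ifit3 was the single gene whose libraries did not overlap. It stood at 11.1, 11.6, 14.6 and 14.3 CPM in the tau IP libraries of B, C, L and M and at 15, 22.8 and 22.9 CPM in the EYFP IP libraries of H, I and K. The log2 fold change was -0.55 ± 0.21 (unadjusted p = 0.0285, adjusted p = 0.367 in edgeR's test). Of all genes tested, 9.22% were lower with tau without overlap and 15.6% were without overlap in either direction, so 1 of 9 is near the background. Its near-copy Ifit3b, with which it may exchange reads, stood at 6.93 ± 0.982 CPM (SD, n = 4) with tau and at 9.11 ± 0.669 CPM (SD, n = 3) with EYFP.

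The other interferon response genes overlapped. Ifit1 was at 1.46, 3.63, 4.20 and 4.32 CPM with tau and at 2.86, 5.92 and 7.38 CPM with EYFP, a log2 difference of -0.59 ± 0.43 (adjusted p = 0.606, edgeR). Isg15 was at 1.19, 4.25, 4.52 and 4.15 CPM with tau and at 4.23, 3.79 and 5.43 CPM with EYFP, a difference of -0.27 ± 0.42 (adjusted p = 0.823, edgeR). Irf7 was at 1.07, 5.51, 5.64 and 7.19 CPM with tau and at 7.64, 5.88 and 7.06 CPM with EYFP, a difference of -0.43 ± 0.48 (adjusted p = 0.754, edgeR). For Isg15 and Irf7 the tau animal B stood apart, and without it the differences were 0.0030 and -0.10.

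Of the MHC genes, the class II pair had fitted differences further from 0 than B2m, a contrast that was not tested. H2-Aa was at 2.78, 4.36, 5.09 and 7.75 CPM in tau animals B, C, L and M and at 6.21, 7.95 and 9.67 CPM in EYFP animals H, I and K, a log2 difference of -0.58 ± 0.33 (adjusted p = 0.518, edgeR). Cd74 was at 12.4, 18.4, 20.9 and 28.2 CPM and at 24.6, 23.9 and 40.2 CPM, a difference of -0.48 ± 0.28 (adjusted p = 0.524, edgeR), which was -0.19 without animal K. Both genes were lowest in B and highest in K.

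Among the class I genes, H2-D1 was at 123.0, 131.8, 120.9 and 169.0 CPM with tau and at 183.8, 152.4 and 204.0 CPM with EYFP, so that only tau animal M reached the EYFP range. The log2 difference was -0.30 ± 0.17 (adjusted p = 0.523, edgeR). H2-K1 was at 28.3, 21.5, 22.8 and 34.6 CPM with tau and at 31.7, 32.6 and 35.9 CPM with EYFP, and its difference was -0.20 ± 0.21 (adjusted p = 0.724, edgeR). B2m was at 128.6, 106.7, 90.9 and 150.1 CPM with tau and at 102.2, 117.7 and 166.7 CPM with EYFP.

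Summed markers of other cells are given for the same libraries. For each non-neuronal list both ends of the tau IP range lay below those of the EYFP IP range, but most of these ranges overlapped. The 11 microglia markers summed to 211.4 to 420.4 CPM in tau IP and to 367.1 to 439.7 CPM in EYFP IP. All 11 had fitted values below 0 with a median of -0.40 and 0 called, where 11014 of 19472 genes lay below 0. Border macrophage markers summed to 4.02 to 12.5 CPM with tau and to 11 to 14.1 CPM with EYFP. Dendritic cell and monocyte markers, at 10.4 to 20.5 against 24 to 31.9 CPM, and pericyte and fibroblast markers, at 54.0 to 85.8 against 94.5 to 140.0 CPM, did not overlap. Lymphocyte markers summed to 1.01 to 5.29 CPM with tau and to 4.89 to 5.58 CPM with EYFP, and endothelial markers to 27.3 to 47.7 and to 38.5 to 48.7 CPM. Astrocyte markers summed to 421.9 to 924.8 CPM with tau and to 876.2 to 1151 CPM with EYFP, oligodendrocyte markers to 3652 to 10339 and to 8853 to 13158 CPM, and neuron markers to 5821 to 6459 and to 5366 to 7330 CPM. No marker on any of these lists was at 0 in all 14 libraries. The part of these cells in the lower levels of the 9 genes was not tested.

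The libraries fall into 2 ranges of library number, 11 or below and 17 or above, and whether these are separate preparations is not given in the sources used here. Each range held 2 tau animals, and the EYFP animals were 2 in the lower and 1 in the upper range. The differences within a range are of log2 CPM on library totals, without the further scaling of the fitted values above, so the 2 are unlike measures. The mean log2 difference of Ifit3 in the IP was -0.70 in the lower range and -0.66 in the upper, and that of Cd74 was -0.68 and -0.73. The same pair of values was -0.83 and -0.79 for Ifit1, -1.01 and -0.62 for H2-Aa, -0.39 and -0.51 for H2-D1, -0.38 and -0.35 for H2-K1, and -0.81 and -0.33 for Isg15. Irf7 differed by -1.44 in the lower range, which holds animal B, and by -0.15 in the upper. B2m differed by 0.09 and -0.51, in opposite directions. In the homogenate 6 of the 9 genes differed in direction between the ranges: B2m (0.28 in the lower and -0.19 in the upper), H2-D1 (0.38 and -0.39), H2-K1 (0.23 and -0.26), Cd74 (0.18 and -0.56), Ifit3 (0.28 and -0.37) and Irf7 (-0.27 and 0.32).

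**Figure D2:**
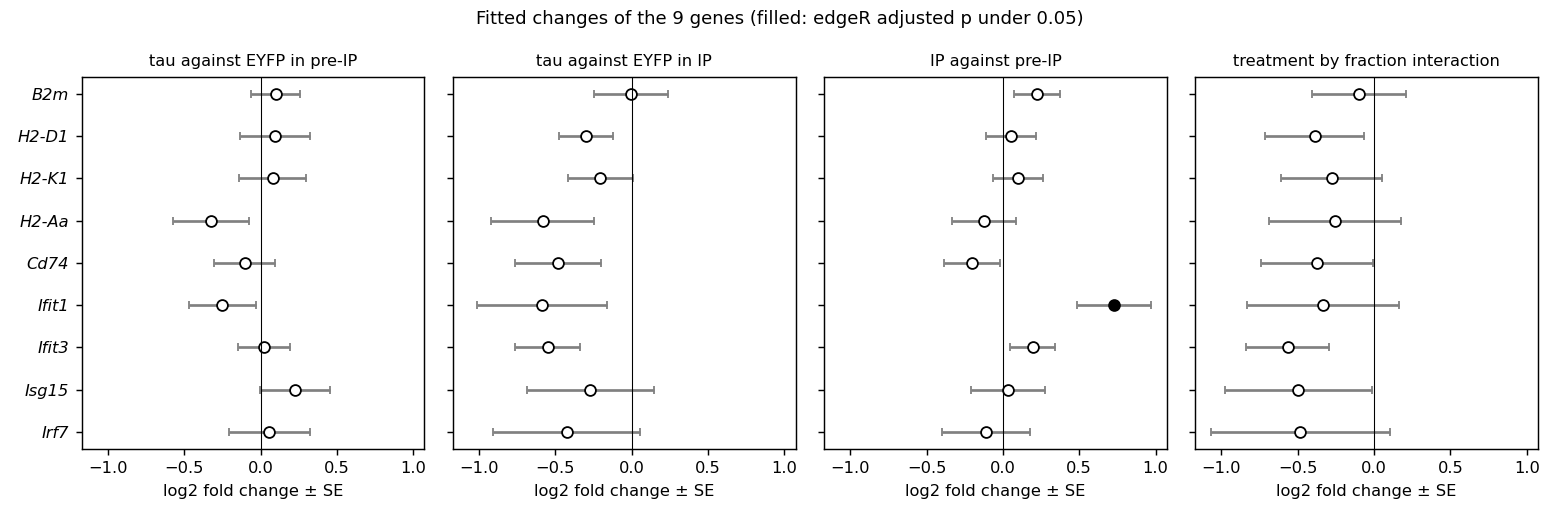
Fitted log2 fold changes of the 9 genes with their standard errors in the 4 comparisons, from edgeR; filled points passed an adjusted p of 0.05. With tau in the IP every point lies at or below 0 with Ifit3 at -0.55, and the single filled point is Ifit1 in IP against pre-IP, at 0.73.

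The IP was then set against the homogenate in a fit of all 14 libraries that also held treatment but no term for the animal. This fit asks which RNAs the tagged ribosomes carried above or below the tissue level. Ifit1 rose in the IP and was the only 1 of the 9 genes to pass, whereas edgeR called 31.0% of the 18792 genes tested, 16.3% as higher and 14.7% as lower, so that 1 of 9 lies below the background share. Ifit1 stood at 4.25 ± 1.94 CPM in IP and at 2.57 ± 0.423 CPM in pre-IP (SD, n = 7 each). Its log2 fold change was 0.73 ± 0.24 (adjusted p = 0.0319, edgeR), and it was higher in the IP of 6 of 7 animals. The ranges of the fractions overlapped, since the IP of animal B, at 1.46 CPM, lay below all homogenates and that of EYFP animal H, at 2.86 CPM, below the highest homogenate, at 3.39 CPM. The call was lost without C, I, K, L or M, with an adjusted p of 0.0613 to 0.0979 and a log2 fold change of 0.66 to 0.77, and without both K and M (0.61, adjusted p = 0.172, edgeR). In tau animals alone it was 0.56 and in EYFP animals alone 0.92, and neither passed.

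The other 8 genes did not pass. B2m had a log2 fold change of 0.22 ± 0.15 (adjusted p = 0.282, edgeR), Ifit3 of 0.20 ± 0.15 and Cd74 of -0.20 ± 0.18. H2-K1, H2-Aa, Irf7, H2-D1 and Isg15 lay between -0.12 and 0.10. The median of the 9 was 0.05, against -0.0036 for all genes. By contrast, all 12 noradrenergic markers were called higher, with a median of 2.33, while of the 11 microglia markers 3 were called lower and 0 higher.

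The comparison within animals shows how unequal the 7 IPs were. In animal B the IP lay below the homogenate for all 9 genes, by a log2 ratio of -0.17 for B2m, -0.53 for H2-D1, -0.25 for H2-K1, -1.33 for H2-Aa, -1.35 for Cd74, -0.66 for Ifit1, -0.47 for Ifit3, -1.68 for Isg15 and -2.02 for Irf7. The class II genes, Isg15 and Irf7 were thus more than 1 log2 unit lower, 4 of 9 genes against 28.4% of the 18792 genes in that animal, and the class I genes less so. The median of all genes in B was -0.34. B also had the highest noradrenergic ratio, 4.06, and the lowest ratio of every other summed marker list. These were -1.22 for microglia, -1.48 for border macrophages, -0.90 for dendritic cells and monocytes and -2.59 for lymphocytes. They were -0.65 for endothelial cells, -0.78 for pericytes and fibroblasts, -1.32 for astrocytes and -1.73 for oligodendrocytes. The neuron ratio of B, 0.12, was above 0 but likewise the lowest, against 0.21 to 0.65 in the other animals. The IP RNA of B had the lowest concentration of all, 0.1 ng per µl. The part of these measures in the low levels of B was not tested.

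For H2-Aa, Cd74, Isg15 and Irf7 the other 6 animals all lay closer to 0 than B. Cd74 had ratios of -0.38, -0.33 and 0.11 in tau animals C, L and M and of -0.04, 0.04 and 0.06 in EYFP animals H, I and K. Irf7 had 0.06, -0.56 and 0.05 with tau and -0.09, 0.49 and 0.21 with EYFP. For the other 5 genes at least 1 animal lay further from 0 than B, on the positive side. The highest ratios were 0.57 for B2m in K and, in I, 0.59 for H2-D1, 0.69 for H2-K1 and 0.88 for Ifit3. Ifit1 had 0.40, 0.97 and 0.91 with tau and 0.23, 1.15 and 1.11 with EYFP, above 0 in all 6.

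In these ratios, which use library totals with no further scaling, Ifit3 and Isg15 were separated by treatment. Ifit3 had ratios of -0.47, -0.39, 0.17 and 0.14 in B, C, L and M, all below the 0.22, 0.88 and 0.45 of H, I and K. Isg15 had -1.68, 0.25, -0.15 and 0.02, all below the 0.29, 0.46 and 0.27 of the EYFP animals. The highest tau value, in C, and the lowest EYFP value, in K, nearly met. The median ratio of all genes was -0.12 in C and 0.05 in K, a wider gap than that of Isg15. The separation of Isg15 therefore depends on the scaling. H2-D1 did not separate, with 0.01 in C above -0.01 in K. Of all 20495 genes, 8.08% had ratios lower in every tau animal than in every EYFP animal.

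**Figure D3:**
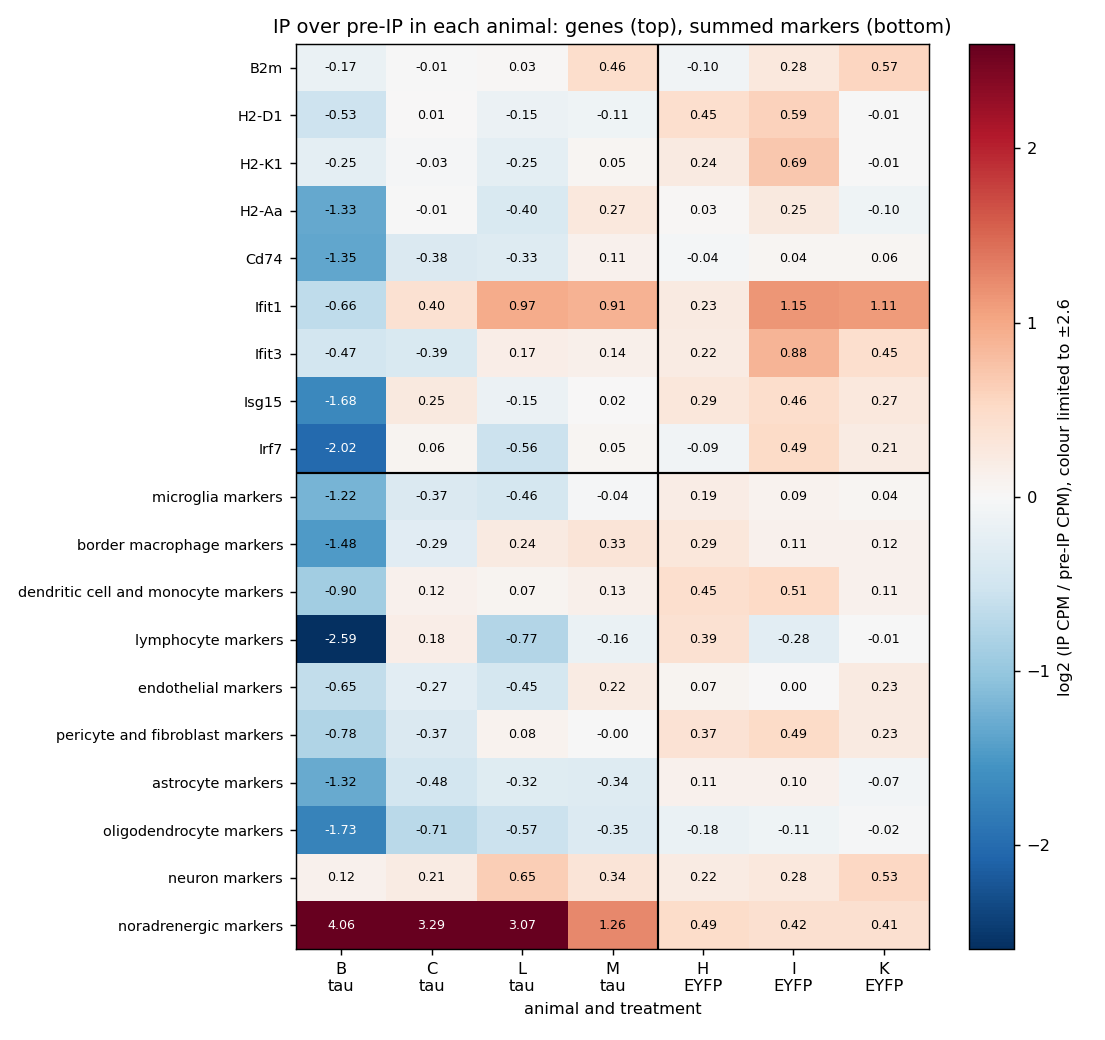
Log2 ratio of IP to pre-IP CPM in each animal for the 9 genes (top) and for the summed level of each marker list (bottom), tau animals left of the line and EYFP animals right. In B, Irf7 is at -2.02 and lymphocyte markers at -2.59 while noradrenergic markers are at 4.06 (colour is limited to ±2.6), and Ifit1 is above 0 in the other 6 animals.

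The interaction of treatment and fraction tests for a difference of this kind between the treatments. Its fit held no term for the animal, so the standard errors and p-values here do not use the pairing of the ratios. The interaction was below 0 for all 9 genes, as it was for 11184 of the 20495 genes tested, and passed for none in edgeR's test. Ifit3 had -0.57 ± 0.27 (unadjusted p = 0.0527, adjusted p = 0.820), Isg15 -0.50 ± 0.48 and Irf7 -0.48 ± 0.59. H2-D1 had -0.39 ± 0.32, Cd74 -0.38 ± 0.37, Ifit1 -0.34 ± 0.50, H2-K1 -0.28 ± 0.33, H2-Aa -0.25 ± 0.43 and B2m -0.10 ± 0.31. The median was -0.38 against -0.05 for all genes. edgeR called 0.0% of all genes, 0 of the 9 had an unadjusted p under 0.05 against 5.97% of all, and DESeq2 and voom called 0 of the 9. This comparison and the one in IP share the same IP libraries.

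A further 113 genes of the same pathways were listed in 5 lists. Their IP against pre-IP calls are read against the same 31.0% of all genes, 16.3% higher and 14.7% lower. The called share lay below 31.0% in every list except that of sensing and signalling, where it lay above. Whether any list differs from all genes was not tested. Far fewer of all genes were called in EYFP animals alone, as given in the last section, so call counts are not comparable between treatments. The 31.0% belongs to the fit of all 14 libraries. Counts under other settings are given to show which calls held. They have no share of all genes beside them and are not read as results about a list. Without animal B, edgeR called 5920 of 18861 genes. Of 19 tested genes for MHC class I and its antigen processing, 5 rose in the IP and 0 fell. They were Canx, a chaperone of the heavy chain (0.56 ± 0.11, log2 fold change ± SE, adjusted p = 0.00108, edgeR), the immunoproteasome subunits Psmb10 (0.58 ± 0.13) and Psmb8 (0.39 ± 0.14), and the proteasome activator subunits Psme1 (0.41 ± 0.14) and Psme2 (0.47 ± 0.15). Psmb9, a further immunoproteasome subunit, was not among the calls. With tau it stood at 5.23 ± 1.10 CPM in IP and 5.02 ± 1.06 CPM in pre-IP (SD, n = 4 each). With EYFP it stood at 5.09 ± 1.02 and 4.34 ± 0.836 CPM (SD, n = 3 each). Canx rose from 197.2 ± 29.0 to 281.8 ± 32.6 CPM (SD, n = 7 each) and was higher in the IP of all 7 animals. Its call also held in tau animals alone and in EYFP animals alone. Of the 5 calls, 4 held in tau animals alone and 1, that of Canx, in EYFP animals alone, where Psme1 was at 0.12 (adjusted p = 0.705, edgeR) and Psme2 at 0.07 (adjusted p = 0.838, edgeR). Without animal B, 3 of the 5 calls held, and the list had 5 higher and 1 lower. With the animal as a paired block the list again had 5 higher, of which 4 were the same genes, and Psmb8 was lost (adjusted p = 0.0569, edgeR). Without K and M, 3 were called.

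Of 13 tested genes for MHC class II, 2 fell and 1 rose. Those that fell were Rfx5 (-0.93 ± 0.17, adjusted p = 0.00104, edgeR) and Rfxank (-0.56 ± 0.12, adjusted p = 0.00318, edgeR), subunits of the complex that binds the X box of MHC promoters. Both were lower in the IP of all 7 animals, Rfx5 at 10.7 ± 3.22 CPM in IP against 20.6 ± 2.21 CPM in pre-IP (SD, n = 7 each). Ifi30, a thiol reductase of the peptide-loading compartment, rose by 0.55 ± 0.20, a call that was lost with the paired block (adjusted p = 0.0632, edgeR) and without K and M. The class II structural genes of the list did not pass. In tau animals alone 2 fell and 0 rose, and in EYFP animals alone 1 fell and 0 rose.

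Interferon genes themselves were scarcely seen. Ifna2, Ifna4, Ifnb1 and Ifnl3 had 0 counts in all 14 libraries, where 3 counts stand for up to 0.0717 CPM. Ifng reached 4 counts in the tau homogenates and Ifnl2 reached 8 counts in the tau IP libraries, with 0 in the other groups, and neither was tested. Of the 6 genes of this list that were tested, Ifnar1, a chain of the type I interferon receptor, fell by 0.56 on the log2 scale (SE 0.14, adjusted p = 0.00700, edgeR), and 0 rose. The call of Ifnar1 held neither in tau animals alone nor in EYFP animals alone.

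Of 22 tested genes for sensing of nucleic acids and for interferon signalling, 3 rose and 5 fell. Ifih1, a sensor of double-stranded RNA, rose by 1.67 ± 0.38 (adjusted p = 0.00382, edgeR), from 0.493 ± 0.191 to 1.49 ± 0.751 CPM (SD, n = 7 each), and was higher in the IP of all 7 animals. Its homogenate counts were low, at 12 to 38. The kinases Jak2 (1.19 ± 0.21) and Jak1 (0.38 ± 0.12) also rose. The largest falls were those of the transcription factor Irf5 (-0.72 ± 0.15), the receptor kinase Tyk2 (-0.69 ± 0.15) and Stat2 (-0.55 ± 0.14), a transcription factor that interferon receptors activate. Jak2 and Tyk2 thus changed in opposite directions. Without K and M, 3 rose and 3 fell. In tau animals alone 1 rose and 6 fell, and in EYFP animals alone 1 rose and 0 fell. Stat2, for example, was at -0.78 in tau animals alone and at -0.28 in EYFP animals alone. No listed gene passed edgeR's interaction test of the difference between the treatments.

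Of 42 tested other interferon-stimulated genes, 8 rose and 1 fell. Those with the largest rises were Herc6, the ligase for Isg15 in mice (1.37 ± 0.38, adjusted p = 0.0117, edgeR), Samd9l (1.28 ± 0.31) and Iigp1, an immunity-related GTPase (1.14 ± 0.36). Herc6 stood at 1.44 ± 0.639 CPM in IP and at 0.586 ± 0.278 CPM in pre-IP (SD, n = 7 each). Each of these 3 was higher in the IP of 6 of 7 animals. In the homogenates Herc6 had 8 to 57 counts, Samd9l 20 to 44 and Iigp1 16 to 50, so these rises rest on low counts. Oasl1 was lower in the IP of all 7 animals (adjusted p = 0.00748, edgeR). It had 0 to 4 counts in the tau IP libraries, 16 to 28 in the EYFP IP libraries and 24 to 60 in the homogenates, so its fitted fold change rests on counts near the floor and is not given. With the paired block 6 rose, 1 fell, and Iigp1 was lost (adjusted p = 0.0560, edgeR). Without K and M, 8 rose and 0 fell, and 7 of the calls were shared. In EYFP animals alone 2 rose, and in tau animals alone 2 rose and 1 fell.

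**Figure D4:**
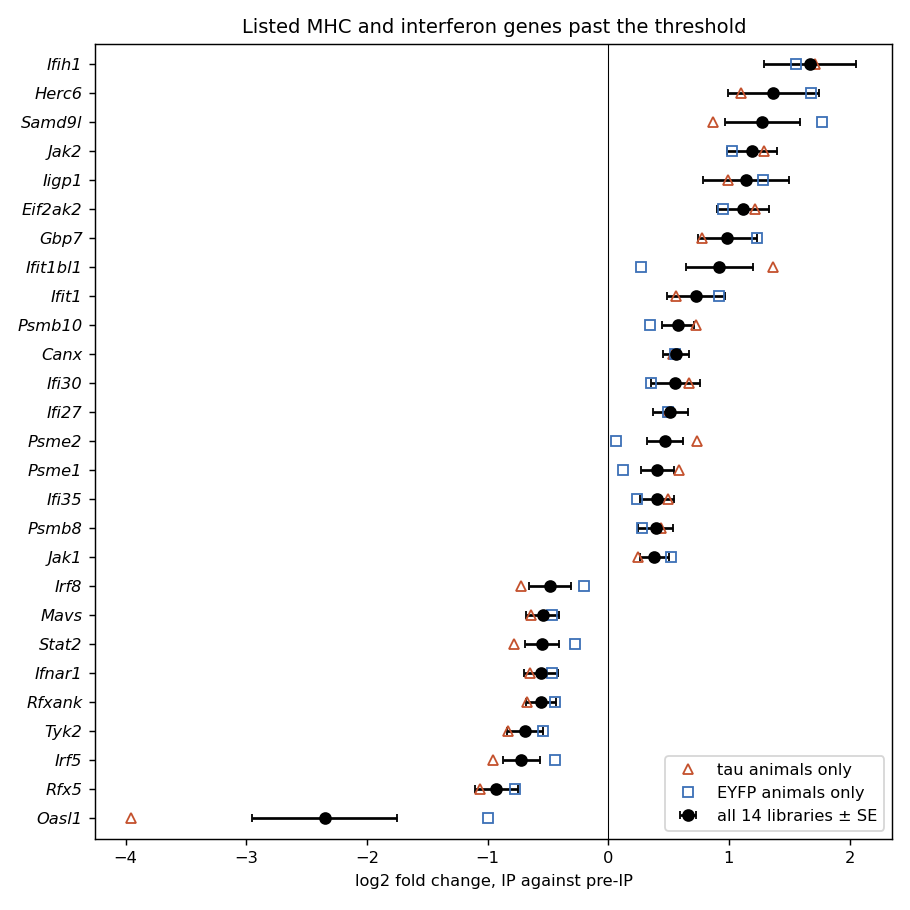
Log2 fold change of IP against pre-IP for the listed MHC and interferon genes that passed an adjusted p of 0.05 in edgeR (black, ± SE, all 14 libraries), with the values in tau animals alone (triangles) and EYFP animals alone (squares). Canx at 0.56 has nearly the same value in both treatments, whereas Psme2 is at 0.73 in tau animals and 0.07 in EYFP animals.

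Treatment moved none of the listed genes past the adjusted threshold in the homogenate or the IP. In the homogenate the 2 smallest p-values of each list, all with an adjusted p of 1.00 in edgeR's test, belonged to Psmb8 (0.44 ± 0.17, tau minus EYFP) and H2-Q7 (-0.41 ± 0.35), to Ifi30 (0.41 ± 0.20) and H2-DMb2 (0.52 ± 0.35), to Ifnlr1 (0.56 ± 0.36) and Il10rb (-0.06 ± 0.16), to Tlr9 and Tlr3 (-0.49 ± 0.20), and to Mx2 (-0.61 ± 0.31) and Oasl1 (-0.58 ± 0.37). Psmb8, of the immunoproteasome, did not overlap, at 6.48 to 7.89 CPM with tau and 5.37 to 5.58 CPM with EYFP. Of all genes, 1.33% were higher without overlap. Tlr9, a sensor of DNA, had 12 to 30 counts with tau and 8 to 9 with EYFP.

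In the IP the listed genes with the smallest p-values differed in direction. Psme2 was at 84.6 to 135.9 CPM with tau and at 66.0 to 70.6 CPM with EYFP, a log2 difference of 0.75 ± 0.21 (adjusted p = 0.318, edgeR), and Psme1 differed by 0.62 ± 0.21. Ifi30 differed by 0.75 ± 0.37 and H2-Ab1, the class II beta chain that pairs with the product of H2-Aa, by -0.64 ± 0.43. H2-Ab1 stood at 3.04 to 16.2 CPM with tau and at 14.6 to 21 CPM with EYFP. Stat2 differed by -0.65 ± 0.23, Ifngr2 by 0.40 ± 0.22, Ifngr1 by -0.20 ± 0.23 and Oasl2 by 0.85 ± 0.31. Cgas had 0 to 18 counts with tau and 36 to 40 with EYFP, and Oasl1 had the counts given above. The medians of the lists were -0.02 for class I, -0.22 for class II, 0.02 for interferons and receptors, -0.22 for sensing and signalling and -0.20 for other interferon-stimulated genes, against -0.08 for all genes. The summed level of the 23 sensing and signalling genes did not overlap in the IP, at 170.5 to 237.1 CPM with tau and 262.5 to 264.0 CPM with EYFP. In the homogenate it did, at 230.5 to 254.4 and 220.5 to 263.7 CPM. A large part of the IP sums was Jak1, at 72.6 ± 13.4 CPM (SD, n = 4) with tau and 90.0 ± 4.75 CPM (SD, n = 3) with EYFP. Of single genes tested in the IP, 15.6% did not overlap in either direction. The sums of the other 4 lists and of the 9 genes overlapped in both fractions.

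The interaction likewise called none of them. Its smallest p-values were those of Psme2 (0.70 ± 0.25, adjusted p = 0.725, edgeR) and Psme1 (0.50 ± 0.25) for class I, and of H2-Eb2 and H2-DMb2 (-1.74 ± 1.06) for class II. In the receptor list they were those of Ifngr2 (0.38 ± 0.26) and Ifngr1 (-0.17 ± 0.27). In the signalling list they were those of Stat2 (-0.48 ± 0.27) and of Tlr9 (adjusted p = 0.534, edgeR), which had 0 counts in all 4 tau IP libraries and up to 18 in EYFP IP. Among the other interferon-stimulated genes they were those of Oasl1 (adjusted p = 0.722, edgeR) and Ifit1bl1 (1.12 ± 0.48). H2-Eb2 had 0 to 24 counts in the IP libraries, and H2-DMb2 had 1 to 42 in tau IP and 40 to 78 in EYFP IP.

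The genes whose log2 CPM followed B2m, Cd74 and Ifit3 most closely over the 14 libraries were found among 15221 genes with a mean of at least 50 counts. Pearson's r served as the measure of likeness only, since libraries share animals, fractions and depth. For B2m they were Gcg (0.94), C1ql3 and Itm2b, for Cd74 they were Ptgds (0.93), Adora2b and Sparcl1, and for Ifit3 they were Gtf2f1 (0.92), Car2 and Acadl. None of these 9 genes was among the nearest 3 when the 7 homogenates were ranked alone. Their ranks there ran from 5 (Gcg, r = 0.95) to 787 (Sparcl1, r = 0.61) among the 15221 genes.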

How the data were processed

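RNA of the 14 libraries was made into cDNA and libraries with SMART-Seq v4 and Nextera XT kits, per the labels' protocols. The submitters' processing notes name FastQC, Trim Galore, STAR and featureCounts with GRCm38 (mm10); versions, strand settings and the treatment of multi-mapping reads are not given in the sources used here. The deposited table lists raw, whole-number counts for 55421 mouse genes and 1 human tau construct. An RNA integrity score was also deposited for each library, with the percent of GC of each library, per the file headers. Symbols came from the deposited gene table, and 3669 of 3765 genes without a symbol there were named from GENCODE M21 by identifier. Because of 2 stray header cells, columns of the count table were read by position, and the construct counts then equalled those of the sheet in all 14 libraries.

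CPM are counts per 1e6 counts of the library, and log2 values use a prior count of 2. Tests were made in edgeR 4.0.16 (R 4.3.3), by its quasi-likelihood method, with filterByExpr, trimmed mean of M-values (TMM) scaling and Benjamini-Hochberg adjustment over all genes tested, at 0.05. The standard error was the log2 fold change over the square root of F. Tau and EYFP were compared within the 7 IP or the 7 pre-IP libraries, and IP against pre-IP and the interaction used all 14. The fits were also run on simulated counts with changes far larger than those fitted for the members. That run does not measure the power to detect changes as small as theirs. Alternatives were DESeq2 1.42.0, voom in limma 3.58.1, other scalings and filters, covariates, each animal left out and, chosen after seeing the data, both K and M left out.

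Fractions were paired by the letter of the animal, which the sample titles give. Over 18792 genes the deviations of the paired fractions from their group means correlated by 0.15 to 0.40. Motifs were searched by letters in RefSeq windows of 250 bases. The text names the 9 members, the listed genes that passed (the 3 with the largest change in each direction where over 6 passed), otherwise the 2 with the smallest p of each list, and the 3 genes most like B2m, Cd74 and Ifit3; Ifit3b was added after its values were seen. The members and lists were chosen with earlier results of these data known. Nothing says whether the letters mark separate litters or days, so p-values of tau against EYFP measure the spread between these 7 animals. The main fits of IP against pre-IP and of the interaction held no term for the animal. In them the 2 libraries of an animal entered as separate units, and the paired block was an alternative only.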

Additional observations from a re-analysis of the deposited data

Results flagged for a closer look

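Among 27 sets of IP or pre-IP levels and ratios of the 9 genes in the 4 tau animals, 1 held a value far from the rest by Dixon's test, of which chance flags about 1 in 20. Isg15 was at 1.19 CPM in the IP of tau animal B, while the IPs of C, L and M lay between 4.15 and 4.52 CPM. The homogenate of B held Isg15 at 3.89 CPM, inside the range of the other animals.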

How the results depend on the processing

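None of the 9 genes passed the threshold for tau against EYFP, in IP or in pre-IP, or for the interaction, under any alternative run, and the smallest adjusted p of a member there was 0.140 (Ifit3 in IP, all 14 libraries in a single fit); DESeq2 gave no adjusted p for 7 of them in the IP comparison. Counts over all genes did depend on the setting. For tau against EYFP in IP edgeR called 0 genes, DESeq2's Wald test 411, no filter 113, all 14 libraries in a single fit 202, without K and M 8, and leaving out an animal 0 to 128, the highest without M. In pre-IP 0 became 44 with no filter, 1 without K and M and 0 to 1 with an animal left out. For the interaction 0 became 52 with DESeq2, 67 with no filter, 13 without K and M and 0 to 56 with an animal left out. For IP against pre-IP 5828 became 1218 in EYFP animals alone and 4291 to 5920 with an animal left out. With the animal as a paired replicate block it was 6119, and Ifit1 still passed (0.65, adjusted p = 0.0363, edgeR). The count of members called, 1, became 0 without K and M, in EYFP animals alone and in tau animals alone, and 0 to 1 with an animal left out. Of the 3 genes most like B2m, Cd74 and Ifit3, 0 remained among the nearest 3 in pre-IP alone, where their ranks ran from 5 to 787. The causes were not tested. Library totals without TMM moved the median of all genes for tau in IP from -0.08 to -0.18.

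Values near 0 changed sign, and none of these passed. For IP against pre-IP, EYFP animals alone gave Cd74 0.011, H2-Aa 0.020 and Irf7 0.17, tau animals alone gave H2-D1 -0.14, H2-K1 -0.054, Ifit3 -0.076 and Isg15 -0.20, voom gave H2-Aa 0.041 and Irf7 0.084, and the replicate block gave Isg15 -0.013. For tau in IP, B2m was 0.027 with DESeq2's test and with its size factors, 0.0076 in the single fit, 0.022 with the sex label as covariate and 0.14 without K and M. In pre-IP, Cd74 was 0.035 with voom and 0.20 without K and M, and Irf7 was -0.059 with the library-number range as covariate. Leaving out an animal, IP against pre-IP ran from -0.21 to 0.017 for H2-Aa, -0.018 to 0.12 for H2-D1, -0.19 to 0.020 for Irf7 and -0.027 to 0.19 for Isg15. Tau in IP then ran from -0.17 to 0.22 for B2m and -0.41 to 0.0030 for Isg15. Tau in pre-IP ran from -0.040 to 0.19 for B2m, -0.24 to 0.21 for Cd74, -0.12 to 0.47 for H2-D1, -0.11 to 0.37 for H2-K1, -0.072 to 0.22 for Ifit3 and -0.15 to 0.26 for Irf7. The interaction of B2m ran from -0.25 to 0.033.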
